A study of Homo sapiens with 12 samples.

Results

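Genes that build, salvage or transport nucleotides, or that supply folate-bound carbon units for that work, were followed in U937 cells treated with JS-K, a nitric oxide prodrug. The genes were chosen by function, as a list of 31 symbols, with earlier results of these data known. All 31 were found among the 19775 genes that the arrays measured through probe sets carrying 1 gene symbol, and each was read from its brightest probe set by mean over 12 arrays. The list holds 6 genes of de novo purine synthesis, 3 of the branch to GMP, 3 of purine salvage, 5 of pyrimidine synthesis, 8 of deoxynucleotide supply, 1 nucleoside transporter and 5 of folate one-carbon metabolism.

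U937 is an established human line of monocyte-like leukemia cells. It was grown in culture medium with serum, and total RNA from 12 cultures in 4 groups was hybridised to Affymetrix 3' expression arrays, 3 biological replicates per group. One group received the vehicle DMSO, and the others had JS-K exposures of 90 min, 4 h and 24 h. All groups share the same single cell line, the dose of JS-K and the exposure time of the vehicle cells are not given in the sources used here, and every comparison with vehicle uses the same 3 vehicle arrays. In those comparisons, JS-K cannot be told apart from time in culture. In bulk RNA such as this, fewer cells of a type and less RNA per cell cannot be told apart either.

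Cells make purine rings by adding atoms one by one to a ribose phosphate carrier until IMP is formed, which is then turned into AMP or GMP. Pyrimidine rings are built first and attached to ribose phosphate afterwards, giving UMP and then CTP. The purine route and the making of thymidylate draw on carbon units carried by folate. Salvage enzymes and transporters recover bases and nucleosides as the alternative supply. Dividing leukemia cells need the purine and the pyrimidine route, and several of these enzymes are targets of antimetabolite drugs.

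Values are log2 expression levels as the authors deposited them, and a level of one gene is not comparable with that of another because probe sets differ in brightness. A gene was called higher or lower when its limma adjusted p, corrected over all 19775 genes, was under 0.05, and the errors of differences are standard errors (SE). The number of arrays, 3 per group, limits the precision. Array medians lay between 2.84 and 3.10, and the extreme array was JS-K 4 h replicate 2, with a median of 3.10 and an upper quartile of 6.20. Of the myelomonocytic markers, 9 of 11 had a mean of at least 4, a mark below which 51.7% of all genes lay. Among markers of other cells, 0 of 5 T cell, 0 of 3 erythroid and 0 of 5 epithelial genes reached that mark, against 1 of 4 B cell genes (PAX5) and 1 of 5 fibroblast genes (COL1A1). The probe sets for the poly-A RNAs spiked in before labelling averaged 2.96 ± 0.05 (SD, n = 3) in vehicle, 3.02 ± 0.06 (SD, n = 3) at 90 min, 6.76 ± 0.17 (SD, n = 3) at 4 h and 8.14 ± 0.08 (SD, n = 3) at 24 h. The vehicle and 90 min arrays thus lacked a spike signal that the 4 h and 24 h arrays had. The hybridisation spikes averaged 9.52, 9.57, 9.83 and 11.33 in time order, so the 24 h arrays stood apart from the 4 h arrays too. The 3' minus 5' difference of ACTB was 0.80 ± 0.03 (SD, n = 3) in vehicle and 0.96 ± 0.04 (SD, n = 3) at 24 h, and that of GAPDH was 0.0048 ± 0.017 (SD, n = 3) and 0.129 ± 0.014 (SD, n = 3). In comparisons of 4 h or 24 h with vehicle, JS-K cannot be told apart from whatever made the spike signals differ. The same holds for exposure time in comparisons of 4 h with 90 min and of 24 h with 4 h. The part of these differences in the results was not tested.

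JS-K for 90 min left most of these genes near their vehicle level, 4 h brought lower levels in 14 of the 31, and by 24 h 22 of the 31 were lower and 1, DCK, was higher. At 24 h the falls reached every gene of de novo purine synthesis, of the GMP branch and of purine salvage. They also reached 4 of 5 pyrimidine genes and the nucleoside transporter SLC29A1. Thymidylate synthase and both subunits of ribonucleotide reductase stayed within 0.2 of vehicle on the log2 scale, although RRM1, the large subunit, was among the 22 called lower. At 90 min 2 members were higher (6.45%, against 4.03% of all genes) and 2 lower (6.45%, against 5.62% of all genes), shares close to the background. At 4 h 4 were higher (12.9%, against 23.9% of all genes) and 14 lower (45.2%, against 16.6%). At 24 h 1 was higher (3.23%, against 17.8%) and 22 lower (71%, against 18.9%), and 14 of those 22 were lower by at least 1 on the log2 scale.

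Because 29 of the 31 members had a mean of at least 4, the same shares among the 9551 genes above that mark are the closer background. They were 32.4% lower and 14.7% higher at 4 h, and 37.1% lower and 25.9% higher at 24 h. The median difference of the members from vehicle was 0.02 at 90 min, -0.20 at 4 h and -0.83 at 24 h, beside 0.01, 0.06 and 0.06 over all genes and -0.03, -0.14 and -0.09 over the genes with a mean of at least 4. Counted by arrays that do not overlap between groups, 23 members lay wholly below vehicle at 24 h (21.7% of all genes did) and 5 wholly above (60.6% of all genes did).

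The direction of calls over all genes moved with the scaling. Of all calls at 4 h, 59% were higher in the deposited values, 47.3% after quantile normalization and 21.4% after subtracting each array's median, and at 24 h these shares were 48.5%, 50.2% and 35.1%. Of the 23 members called at 24 h, 20 kept their call under every alternative run, the exceptions being ADK, HPRT1 and RRM1. Of the 18 called at 4 h, 8 did, namely PPAT, GART, PAICS, GMPS, DHODH, UMPS and SHMT2 among the lower ones and DCK among the higher. Without vehicle replicate 1, vehicle replicate 3 or JS-K 4 h replicate 2, the count lower at 4 h was 9 instead of 14.

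**Figure D1:**
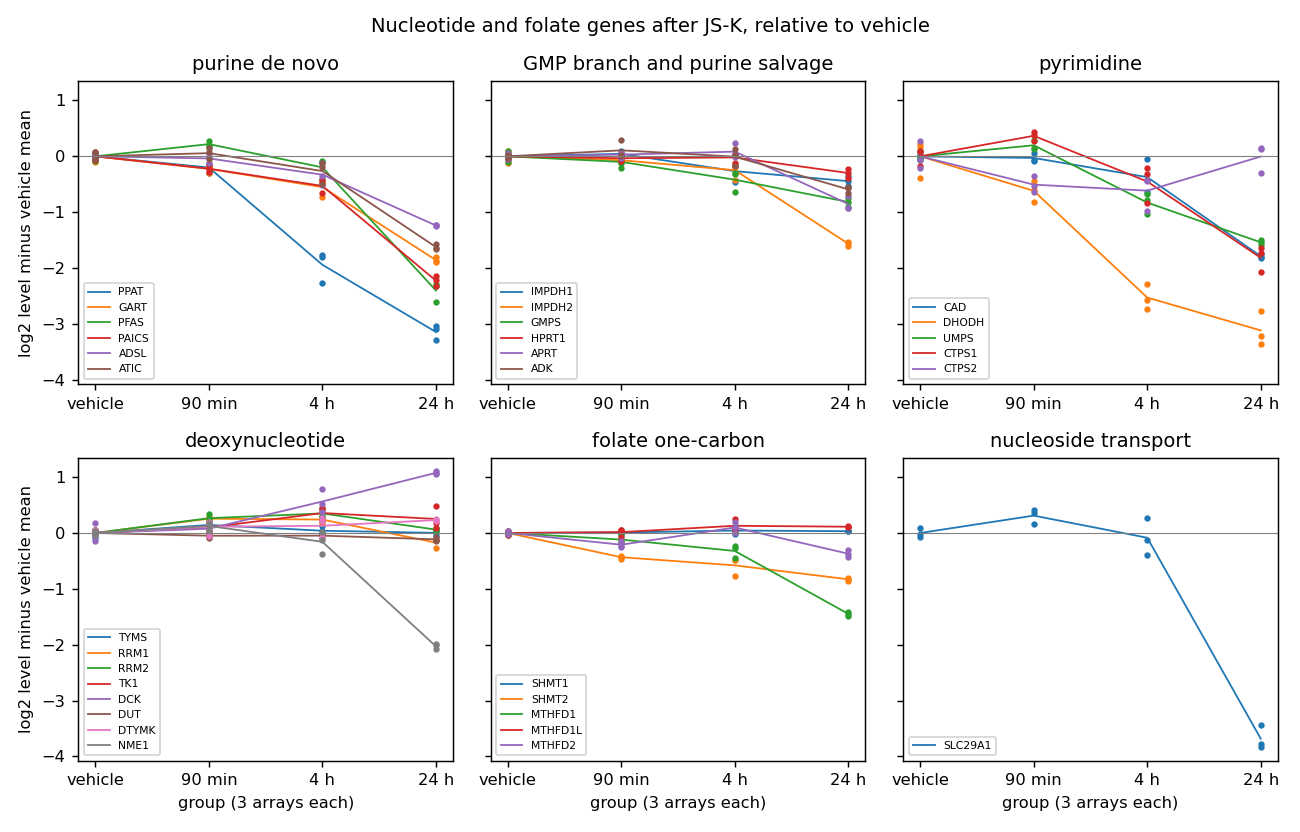
Mean log2 difference from vehicle of each member at 90 min, 4 h and 24 h, drawn as lines in a panel per function group, with the sampling times as categories and a point for each of the 3 arrays. The lines of the de novo purine genes and of SLC29A1 end at 24 h between -1.24 and -3.68, and DCK ends highest at 1.08.

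The 6 genes of de novo purine synthesis fell together at 24 h, and PPAT had the largest difference of them at 4 h. None was called at 90 min, 5 of 6 were lower at 4 h with a group median of -0.43, and all 6 were lower at 24 h with a group median of -2.04. PPAT encodes amidophosphoribosyltransferase, which catalyses the committed step of the pathway. Its level was 9.56, 9.46 and 9.60 in vehicle, 9.24, 9.36 and 9.40 at 90 min, 7.77, 7.27 and 7.74 at 4 h, and 6.44, 6.49 and 6.25 at 24 h. The arrays of 4 h and 24 h overlapped neither with vehicle nor with each other. PPAT fell by 1.94 ± 0.13 (SE) on the log2 scale at 4 h (3.84-fold, adjusted p = 5.93e-07) and fell by 3.14 ± 0.13 (SE) at 24 h (8.84-fold, adjusted p = 2.04e-09).

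PPAT lies head to head with PAICS, another gene of the same pathway, so the stretch between their starts is the part of the genome that both promoters share. In the RefSeq table (GRCh38.p14) PPAT runs leftward from position 56435615 of chromosome 4, within chr4:56393362-56435615, and the nearest listed PAICS start is at position 56435752, running rightward. The 136 bases between them, chr4:56435616-56435751 on the plus strand, hold no CACGTG, a form of the E-box that basic helix-loop-helix factors bind. The CACGTG of the PPAT window lies past that PAICS start, at positions 56435792 to 56435797, so the printed run carries no capitals.
PPAT-PAICS: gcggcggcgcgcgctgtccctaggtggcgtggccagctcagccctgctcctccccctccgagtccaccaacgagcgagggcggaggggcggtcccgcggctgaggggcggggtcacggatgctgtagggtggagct

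PAICS encodes the bifunctional enzyme that carboxylates the imidazole ring and joins aspartate to it. Its arrays read 11.75, 11.81 and 11.89 in vehicle, 11.53, 11.59 and 11.66 at 90 min, 11.31, 11.15 and 11.40 at 4 h, and 9.68, 9.49 and 9.61 at 24 h. The 4 h and 24 h arrays lay below all vehicle arrays. At 4 h PAICS fell by 0.53 ± 0.07 (SE; adjusted p = 0.000238), and from 4 h to 24 h PAICS fell by a further 1.70 while PPAT fell by 1.20. The difference in size between the facing genes was not tested. At 24 h PAICS was lower than vehicle by 4.67-fold (adjusted p = 5.32e-10).

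GART, the trifunctional enzyme that carries the glycinamide and formyl transfer steps, read 10.94, 11.07 and 11.09 in vehicle, 10.86, 10.73 and 10.83 at 90 min, 10.56, 10.31 and 10.57 at 4 h, and 9.23, 9.15 and 9.14 at 24 h. No array of 4 h or 24 h overlapped with vehicle, and GART fell by 0.55 ± 0.08 (SE; adjusted p = 0.000283) at 4 h and fell by 1.86 ± 0.08 (SE; adjusted p = 2.99e-09) at 24 h. The 9 probe sets of GART gave unlike sizes. A dimmer one differed by -3.01 at 4 h and -4.90 at 24 h, and another by 0.13 (adjusted p = 0.592) at 4 h. The last of the 9, with a mean of 2.47, was not called at either time.

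PFAS, which adds the amide nitrogen to the formylated intermediate, was at 9.32, 9.45 and 9.44 in vehicle, 9.67, 9.58 and 9.61 at 90 min, 9.31, 8.99 and 9.31 at 4 h, and 7.13, 7.07 and 6.80 at 24 h. PFAS was the only gene of the group not called at 4 h (-0.20 ± 0.11 SE, adjusted p = 0.131), and at 24 h it fell by 2.40 ± 0.11 (SE; 5.28-fold, adjusted p = 4.59e-09). Almost all of that fall came between 4 h and 24 h, a difference of -2.20 (adjusted p = 3.17e-08).

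The last steps were carried by ADSL, which splits off fumarate, and by ATIC, which closes the ring. ADSL read 11.42, 11.38 and 11.41 in vehicle and 11.04, 10.89 and 11.29 at 4 h, and its 24 h arrays read 10.18, 10.17 and 10.15. ATIC read 10.78, 10.79 and 10.90 in vehicle and 9.25, 9.18 and 9.17 at 24 h. Both groups of arrays were apart for both genes: at 24 h ADSL fell by 1.24 ± 0.08 (SE; adjusted p = 1.65e-07) and ATIC fell by 1.62 ± 0.09 (SE; adjusted p = 2.86e-08). At 4 h the differences were -0.33 for ADSL (adjusted p = 0.0138) and -0.26 for ATIC (adjusted p = 0.044). The 4 h call of ATIC was lost without JS-K 4 h replicate 2 (adjusted p = 0.0960), and without vehicle replicate 1, 2 or 3 (0.0914, 0.0686 and 0.115).

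**Figure D2:**
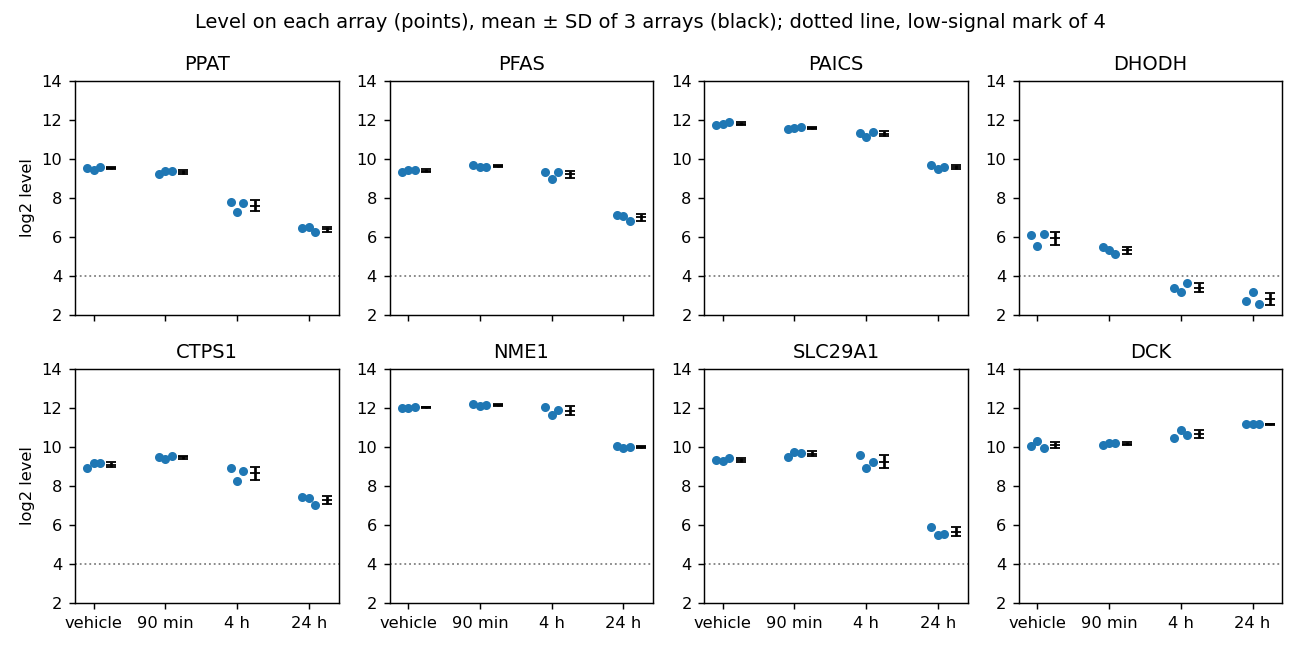
Deposited log2 level in each of the 12 arrays for 8 members, with points for single arrays and black bars for the mean and SD of 3 arrays, and a dotted line at 4. At 24 h the arrays of PPAT (6.25 to 6.49), SLC29A1 (5.51 to 5.91) and NME1 (9.95 to 10.04) lie apart from every vehicle array, and those of DCK (11.16 to 11.20) lie above.

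IMP is turned into GMP by IMP dehydrogenase and GMP synthase, and all 3 genes of that branch were lower at 24 h, with a group median of -0.82. IMPDH2, the main isoform in proliferating cells, read 12.85, 12.63 and 12.77 in vehicle and 11.20, 11.22 and 11.14 at 24 h, with group means of 12.68 at 90 min and 12.51 at 4 h. Its 24 h arrays lay more than 1 unit under every vehicle array, a fall of 1.56 ± 0.08 (SE; 2.96-fold, adjusted p = 1.01e-08). IMPDH1, the second isoform, fell by 0.44 ± 0.11 (SE; adjusted p = 0.00665), and GMPS, which aminates XMP to GMP, fell by 0.82 ± 0.10 (SE; adjusted p = 2.31e-05). At 4 h GMPS was lower by 0.42 ± 0.10 (SE; adjusted p = 0.0082). IMPDH2 was lower at 4 h by 0.25 (adjusted p = 0.034), a call lost without JS-K 4 h replicate 2 (0.0740), vehicle replicate 1 (0.124) or vehicle replicate 3 (0.0937).

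The salvage enzymes fell at 24 h and not before. None of the 3 was called at 90 min or 4 h and all 3 were lower at 24 h, with a group median of -0.59. APRT, which joins adenine to ribose phosphate, read 9.93, 9.98 and 10.04 in vehicle and 9.05, 9.27 and 9.06 at 24 h, and its means at 90 min and 4 h were 10.01 and 10.06. The 24 h arrays stood apart from all others, and APRT fell by 0.85 ± 0.08 (SE; adjusted p = 2.92e-06). HPRT1, which does the same for hypoxanthine and guanine, fell by 0.30 ± 0.06 (SE; adjusted p = 0.00144). ADK, the kinase that phosphorylates adenosine, fell by 0.59 ± 0.09 (SE; adjusted p = 0.000161), but its second probe set differed by 0.30 ± 0.46 (SE; adjusted p = 0.581) at 24 h and by 1.77 ± 0.46 (SE; adjusted p = 0.0206) at 4 h. Averaging the probe sets left ADK uncalled at 24 h (-0.14, adjusted p = 0.539), and left HPRT1 with a difference of 0.03 (adjusted p = 0.694), its other probe set having a mean of only 3.48. The order of salvage against de novo genes at 24 h was not tested.

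All 5 genes of pyrimidine synthesis were called lower at 4 h, with a group median of -0.61, and 4 of 5 at 24 h, with a group median of -1.79. DHODH, the mitochondrial enzyme that oxidises dihydroorotate and hands its electrons to the respiratory chain, showed the largest change. It read 6.08, 5.54 and 6.14 in vehicle, 5.48, 5.32 and 5.10 at 90 min, 3.36, 3.19 and 3.63 at 4 h, and 2.70, 3.15 and 2.56 at 24 h. No array of any JS-K time overlapped with vehicle, and at 4 h and 24 h the means of 3.39 ± 0.22 (SD, n = 3) and 2.80 ± 0.31 (SD, n = 3) were under the mark of 4. The fall was therefore at least 5.77-fold at 4 h (-2.53 ± 0.21 SE, adjusted p = 3.68e-06) and at least 8.67-fold at 24 h (-3.12 ± 0.21 SE, adjusted p = 1.24e-07). At 90 min the difference of -0.62 was not called (adjusted p = 0.0925). The other probe sets of DHODH were dim, and the brighter of them differed by -0.69 at 4 h (adjusted p = 0.0542).

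DHODH lies at chr16:72008744-72027659, and its promoter window is shown because it holds an E-box and overlaps no other gene. The 250 bases before its RefSeq start (GRCh38.p14, chr16:72008494-72008743, plus strand) are printed with CACGTG in capitals, at positions -159 to -154 counted from the start.
DHODH: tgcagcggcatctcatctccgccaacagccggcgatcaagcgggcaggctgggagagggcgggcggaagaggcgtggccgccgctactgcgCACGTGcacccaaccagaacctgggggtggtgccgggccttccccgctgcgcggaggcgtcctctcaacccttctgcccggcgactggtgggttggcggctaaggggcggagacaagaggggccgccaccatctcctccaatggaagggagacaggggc

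CAD carries the first 3 activities of the pathway on 1 polypeptide. It read 9.87, 9.92 and 9.93 in vehicle, 9.86, 9.27 and 9.47 at 4 h, and 8.16, 8.10 and 8.10 at 24 h, with a mean of 9.88 at 90 min. The spread of the 4 h arrays was wide, with replicate 1 close to vehicle, and the 4 h difference of -0.37 ± 0.12 (SE; adjusted p = 0.035) was lost without JS-K 4 h replicate 2 (0.0798) or vehicle replicate 1, 2 or 3 (0.0716, 0.0678 and 0.0939). At 24 h CAD fell by 1.79 ± 0.12 (SE; 3.46-fold, adjusted p = 1.05e-07).

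UMPS, which completes UMP, read 8.87, 8.75 and 8.72 in vehicle, 9.08, 8.92 and 8.94 at 90 min, 8.10, 7.75 and 8.00 at 4 h, and 7.25, 7.28 and 7.20 at 24 h. Each later time lay wholly below the one before it from 90 min onward, and UMPS fell by 0.83 ± 0.10 (SE; adjusted p = 6.74e-05) at 4 h and fell by 1.54 ± 0.10 (SE; adjusted p = 8.39e-08) at 24 h.

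CTP synthase, which aminates UTP, has a pair of isoforms, and 1 of them was lower at 24 h. CTPS1 read 8.93, 9.18 and 9.21 in vehicle, 9.49, 9.38 and 9.54 at 90 min, 8.90, 8.27 and 8.79 at 4 h, and 7.45, 7.37 and 7.04 at 24 h. It fell by 1.82 ± 0.16 (SE; 3.52-fold, adjusted p = 1.35e-06) at 24 h, and its 4 h difference was -0.45 (adjusted p = 0.0449). CTPS2 averaged 5.57 in vehicle, 5.06 at 90 min, 4.95 at 4 h and 5.56 at 24 h. CTPS2 was lower at 4 h by 0.61 ± 0.20 (SE; adjusted p = 0.0408) and its difference at 24 h was -0.00 ± 0.20 (SE; adjusted p = 0.988). Both 4 h calls were lost without JS-K 4 h replicate 2 (CTPS1 0.127, CTPS2 0.0918), vehicle replicate 1 (0.0549 and 0.128) or vehicle replicate 3 (0.112 and 0.0867), and that of CTPS1 without vehicle replicate 2 (0.0908). The difference between the isoforms was not tested.

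**Figure D3:**
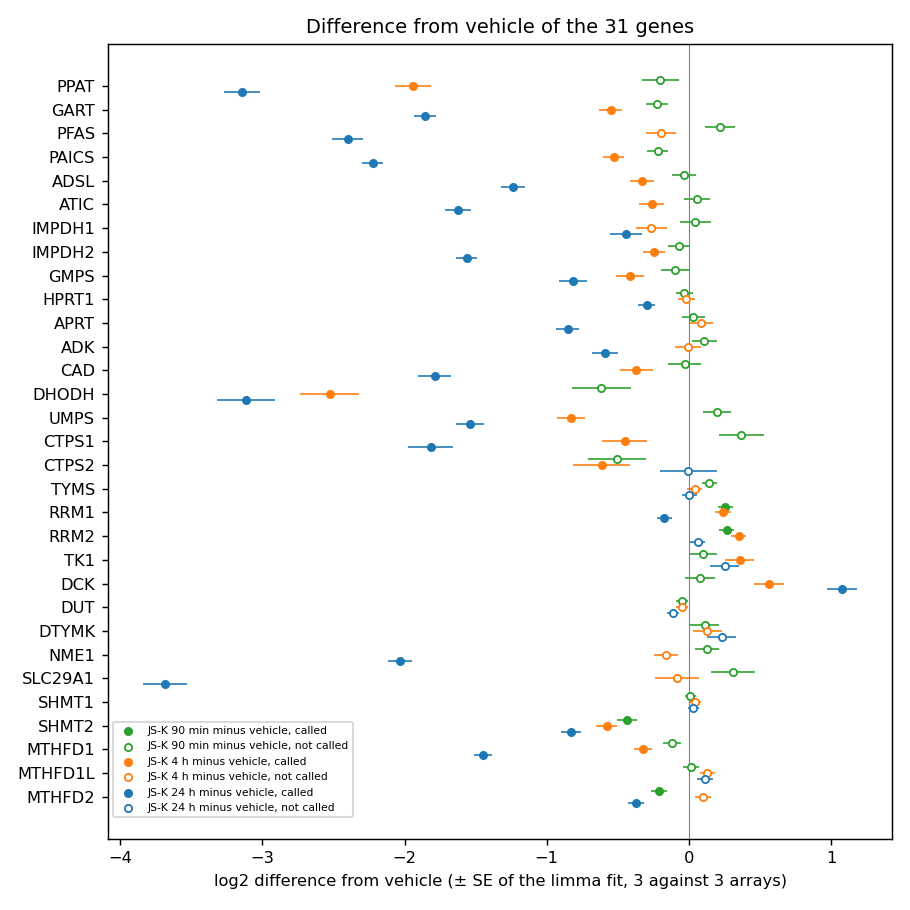
Log2 difference from vehicle of every member at each JS-K time with its standard error, grouped by function, filled points being called at an adjusted p under 0.05. At 24 h 22 filled points lie below 0 and 1, DCK at 1.08, lies above.

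Among the deoxynucleotide genes, at 4 h 4 of 8 were higher and none lower, and at 24 h 1 was higher and 2 were lower, with group medians of 0.18 and 0.03. The largest rise was that of DCK, deoxycytidine kinase, which starts the salvage of deoxycytidine and activates nucleoside analogs such as cytarabine. It read 10.07, 10.29 and 9.95 in vehicle, 10.09, 10.23 and 10.22 at 90 min, 10.49, 10.89 and 10.62 at 4 h, and 11.20, 11.16 and 11.17 at 24 h. All 4 h and 24 h arrays lay above all vehicle arrays, with rises of 0.56 ± 0.10 (SE; adjusted p = 0.00172) and 1.08 ± 0.10 (SE; 2.11-fold, adjusted p = 3.24e-06).

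The DCK window also holds the E-box, so the one gene that rose by over 1 unit carries the same 6 letters as DHODH. DCK lies at chr4:70993649-71030914, and the 250 bases before its RefSeq start (GRCh38.p14, chr4:70993399-70993648, plus strand) have CACGTG, in capitals, at positions -116 to -111 from the start.
DCK: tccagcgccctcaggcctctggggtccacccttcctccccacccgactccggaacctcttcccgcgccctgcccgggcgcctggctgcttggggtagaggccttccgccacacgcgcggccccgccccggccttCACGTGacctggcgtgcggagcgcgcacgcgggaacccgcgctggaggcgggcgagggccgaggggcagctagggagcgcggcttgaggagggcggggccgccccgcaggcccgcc

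NME1, a kinase that phosphorylates nucleoside diphosphates of every base, was the largest fall in the deoxynucleotide group. It read 12.02, 12.01 and 12.08 in vehicle, 12.22, 12.09 and 12.17 at 90 min, 12.06, 11.65 and 11.92 at 4 h, and 10.04, 9.95 and 10.02 at 24 h. The 24 h arrays were about 2 units below all others, and NME1 fell by 2.03 ± 0.08 (SE; 4.08-fold, adjusted p = 2.56e-09) after no call at 4 h (-0.16, adjusted p = 0.126). NME1 has a near-identical neighbour, NME2, so the signal of its probe set may include that transcript, and its level is uncertain in that respect.

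Ribonucleotide reductase, which makes deoxynucleotides from ribonucleotides, moved little. Its large subunit RRM1 had means of 12.13 in vehicle, 12.39 at 90 min, 12.37 at 4 h and 11.96 at 24 h, and its small subunit RRM2 had 13.02, 13.29, 13.37 and 13.08. Both rose by 0.26 ± 0.05 (SE) at 90 min (adjusted p = 0.00904 for RRM1 and 0.00742 for RRM2), calls that RRM1 lost with probe sets averaged (0.124) and RRM2 with array medians subtracted (0.124). At 4 h RRM1 was higher by 0.24 (adjusted p = 0.00591) and RRM2 by 0.35 (adjusted p = 0.000468), while the second probe set of each gave -0.06 and -0.00. At 24 h RRM1 was lower by 0.17 ± 0.05 (SE; adjusted p = 0.0234), a call lost without vehicle replicate 2 (0.0853), without JS-K 24 h replicate 3 (0.113) and after quantile normalization (0.404), and RRM2 was not called (adjusted p = 0.335).

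Of the thymidylate genes, 1 was called against vehicle, at 4 h. TYMS, which methylates dUMP with folate carbon, averaged 13.35, 13.49, 13.39 and 13.35 in the 4 groups in time order and was called in no comparison. DUT, which removes dUTP, averaged 13.71 in vehicle and 13.59 at 24 h (adjusted p = 0.0571), although a dimmer probe set of DUT differed by -0.76 at 24 h (adjusted p = 8.56e-05). DTYMK, the next kinase, averaged 8.08 in vehicle and 8.31 at 24 h (adjusted p = 0.0887). TK1, thymidine kinase, was higher at 4 h by 0.36 ± 0.10 (SE; adjusted p = 0.0218), a call lost without vehicle replicate 2 (0.0541) or 3 (0.0762). At 24 h TK1 differed by 0.25 ± 0.10 (SE; adjusted p = 0.0674), all its arrays lying above vehicle, and it was called higher under 7 of the 16 alternatives, among them quantile normalization (0.34, adjusted p = 0.00606). After subtracting array medians, 1 deoxynucleotide gene and no other member was higher at 4 h.

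Genes of DNA replication and of entry into S phase, with no part in making nucleotides, were counted beside this group as the replication genes. They include regulators such as E2F1, CCNE1 and CCNE2. The reason is that deoxynucleotide genes are known to follow the cell cycle. Of 34 such genes, 2 were higher and 19 lower at 4 h (median -0.32). At 24 h 0 were higher and 32 lower (median -1.24, from -4.04 to 0.02), of which 24 were lower by at least 1. Among all genes with a mean of at least 4, 14.7% were higher and 32.4% lower at 4 h. At 24 h those shares were 25.9% and 37.1%. TYMS, RRM1 and RRM2 thus lay near vehicle at a time when 32 of these 34 genes were called lower, although RRM1 was called lower too. Their vehicle levels were high, at 13.35, 12.13 and 13.02. Of the replication genes, PCNA was at 13.59 in vehicle and 13.32 at 24 h, while MCM6 was at 12.60 and 11.48. Whether bright probe sets understate differences was not tested. The part of the replication genes in the members' values was not tested either.

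SLC29A1, the equilibrative nucleoside transporter that lets nucleosides and several of their drug analogs cross the plasma membrane, had the largest measured difference of the 31 genes at 24 h, that of DHODH being a lower bound. It read 9.31, 9.28 and 9.43 in vehicle, 9.51, 9.75 and 9.69 at 90 min, 9.60, 8.94 and 9.22 at 4 h, and 5.91, 5.51 and 5.56 at 24 h. The 4 h arrays lay on both sides of vehicle (-0.09, adjusted p = 0.646), whereas the 24 h arrays were over 3 units below it. SLC29A1 fell by 3.68 ± 0.16 (SE; 12.8-fold, adjusted p = 2.82e-09) at 24 h, and its second probe set gave -3.72 ± 0.35 (SE).

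RefSeq lists several starts for SLC29A1, within chr6:44219615-44234142, and the window of the outermost is printed because it holds an E-box, while that of a start at 44223595 does not. These are the 250 bases of chr6:44219365-44219614 (GRCh38.p14, plus strand), with CACGTG in capitals at positions -245 to -240 from the start.
SLC29A1: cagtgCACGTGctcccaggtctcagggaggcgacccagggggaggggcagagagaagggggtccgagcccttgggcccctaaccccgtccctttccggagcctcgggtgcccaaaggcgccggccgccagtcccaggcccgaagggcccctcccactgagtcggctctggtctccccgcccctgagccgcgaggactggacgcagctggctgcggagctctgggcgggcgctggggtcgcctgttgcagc

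In folate one-carbon metabolism the cytosolic enzyme MTHFD1 and the mitochondrial SHMT2 fell most, and 3 of 5 genes were lower at 24 h, with a group median of -0.37. MTHFD1, a trifunctional enzyme that interconverts folate carbon units and yields the formyl folate used in purine rings, read 11.68, 11.65 and 11.61 in vehicle, 11.61, 11.50 and 11.47 at 90 min, 11.41, 11.19 and 11.38 at 4 h, and 10.23, 10.21 and 10.16 at 24 h. All 4 h and 24 h arrays were below vehicle, and MTHFD1 fell by 0.32 ± 0.06 (SE; adjusted p = 0.00292) at 4 h and fell by 1.45 ± 0.06 (SE; 2.73-fold, adjusted p = 4.53e-09) at 24 h.

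SHMT2, which passes the carbon of serine to folate in mitochondria, was the only member whose 90 min call held in every alternative run. It was lower by 0.43 ± 0.07 (SE; adjusted p = 0.00192) at 90 min, by 0.58 at 4 h (adjusted p = 8.86e-05) and by 0.83 at 24 h (adjusted p = 1.13e-06). Its arrays read 11.78, 11.82 and 11.82 in vehicle and 11.39, 11.35 and 11.38 at 90 min, with no overlap. MTHFD2, the mitochondrial dehydrogenase and cyclohydrolase, averaged 11.92, 11.71, 12.02 and 11.55 in time order. It was lower at 24 h by 0.37 ± 0.06 (SE; adjusted p = 0.000194), and its 90 min difference of -0.21 (adjusted p = 0.0374) was lost when any 1 array of that comparison was left out (adjusted p from 0.0512 to 0.144). SHMT1, the cytosolic counterpart of SHMT2, and MTHFD1L, the mitochondrial synthetase, had means under 4, at 2.6 to 2.8 in every group, and were called in no comparison.

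The E-box of MTHFD1 is the nearest to a start among the windows printed here. The 250 bases before its RefSeq start (GRCh38.p14, chr14:64388103-64388352, plus strand) have CACGTG, in capitals, at positions -15 to -10 from the start.
MTHFD1: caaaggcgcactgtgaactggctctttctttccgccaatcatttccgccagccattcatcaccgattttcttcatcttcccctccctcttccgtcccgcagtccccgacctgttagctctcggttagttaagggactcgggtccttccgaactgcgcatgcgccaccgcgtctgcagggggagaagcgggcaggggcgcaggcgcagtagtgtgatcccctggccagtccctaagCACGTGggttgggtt

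Promoter windows were found for 28 of the 31 members, the windows of 250 bases before the start being searched for CACGTG, which reads the same on both strands. The E-box stood in 7 of 28 members (25%), against 7.73% of 27305 genes, namely PPAT, ATIC, DHODH, MTHFD1, SLC29A1, DCK and MTHFD1L. At 24 h 5 of these 7 were lower and 1 higher, with a median difference of -1.62. Of the 21 without it 14 were lower and 0 higher, with a median of -0.44. PAICS counts among those without it, although the CACGTG of the PPAT window lies just past a PAICS start. MTHFD1L counts among those with it, although its mean is under 4. The difference between these sets of genes was not tested. TTTCCCGC and TTTGGCGC, forms bound by E2F factors, and TGATGCAA, a form bound by ATF4, were searched on both strands. TTTCCCGC was found in DUT and TYMS (7.1% of members, 1.7% of all genes), TTTGGCGC in DUT and GART (7.1% and 0.68%) and TGATGCAA in MTHFD1L (3.6% and 0.97%). These matches are descriptions of the letters in the windows.

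**Figure D4:**
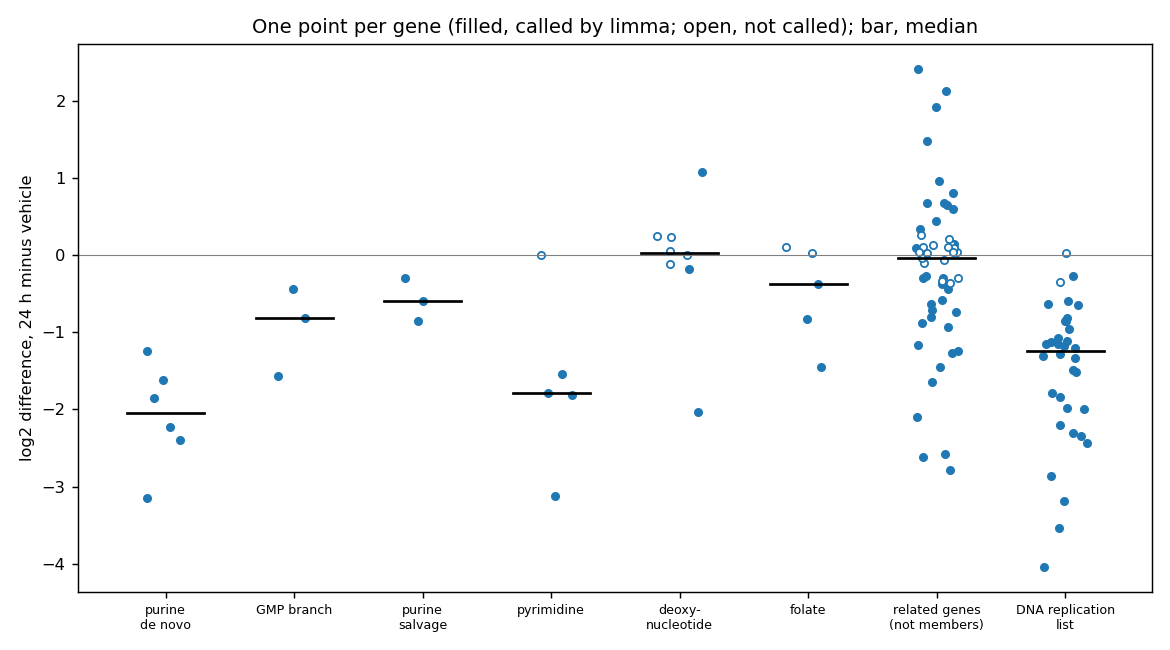
Log2 difference from vehicle at 24 h, 1 point per gene, for 6 function groups of members, the other pathway genes and the replication genes, with a bar at each median and filled points for called genes. The medians are -2.04 for de novo purine synthesis, -1.79 for pyrimidine synthesis, -0.82 for the GMP branch, -0.59 for salvage, -0.37 for folate genes and 0.03 for deoxynucleotide genes.

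Between neighbouring times, more members were called between 4 h and 24 h than between 90 min and 4 h. Between 90 min and 4 h, 2 members were higher (6.45%, against 3.33% of all genes) and 9 lower (29%, against 7.25% of all genes). The members' median was -0.18, beside 0.05 over all genes and -0.08 over those with a mean of at least 4. Of all calls in that comparison 31.5% were higher as deposited, 46% after quantile normalization and 19.8% with medians subtracted. The 9 included all 6 de novo purine genes, DHODH, UMPS and CTPS1, among them PPAT (-1.74, adjusted p = 7.13e-06) and DHODH, which was at least 3.76-fold lower (adjusted p = 0.0001), its 4 h mean being under the mark of 4. Only 4 were lower without 90 min replicate 3, and 5 without 90 min replicate 1 or 4 h replicate 2. GART, PFAS, PAICS, ADSL and ATIC each lost their call in at least 1 of these omissions.

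The arrays of 4 h and 24 h both carried poly-A spikes, but at 6.76 and 8.14, with hybridisation spikes at 9.83 and 11.33. Between these times 21 members were lower (67.7%, against 10.7% of all genes and 21.8% of those with a mean of at least 4). Only 2 were higher (6.45%, against 12.8% and 24.7%). The members' median was -0.58, beside -0.01 over all genes and 0.04 over those with a mean of at least 4. The steepest were SLC29A1 (-3.60, 12.1-fold, adjusted p = 1.31e-08), PFAS (-2.20), NME1 (-1.87, adjusted p = 1.96e-08) and PAICS (-1.70, adjusted p = 1.47e-08). DHODH was under the mark of 4 at both times and was not called (adjusted p = 0.0606). DCK rose by 0.51 (adjusted p = 0.00255), and CTPS2 by 0.61 ± 0.20 (SE; adjusted p = 0.0458), the latter lost without JS-K 4 h replicate 2 (0.136), JS-K 4 h replicate 3 (0.0528) or JS-K 24 h replicate 1 or 2 (0.154 and 0.147). SHMT2 was lower by 0.25 (adjusted p = 0.021), a call lost without JS-K 4 h replicate 1 or 3 (0.0811 and 0.0956) or JS-K 24 h replicate 2 or 3 (0.0728 and 0.0549).

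The neighbouring genes of these pathways, 53 of 61 listed being measured, moved in both directions. At 24 h 14 of them were higher (26.4%) and 21 lower (39.6%), with a median of -0.03. At 4 h 7 were higher (13.2%) and 17 lower (32.1%). Over all genes 17.8% were higher and 18.9% lower at 24 h, and 23.9% and 16.6% at 4 h. Among genes with a mean of at least 4, 25.9% were higher and 37.1% lower at 24 h, and 14.7% and 32.4% at 4 h. The neighbouring genes include some with a mean under 4, such as AMPD1 and GGH, so their shares are not on a like footing with these last ones. Without vehicle replicate 1 or JS-K 24 h replicate 2, 9 neighbouring genes were higher at 24 h. Among those that rose at 24 h, UPP1, which splits uridine, rose by 2.42 ± 0.17 (SE; adjusted p = 2.23e-07), and TK2, the mitochondrial thymidine kinase, by 1.49 ± 0.16 (SE; adjusted p = 1.13e-05). RRM2B, the p53-inducible small subunit of ribonucleotide reductase, rose from 8.06 in vehicle to 8.72, 9.05 and 10.20 in time order, by 2.13 ± 0.07 (SE; adjusted p = 5.32e-10) at 24 h, whereas its counterpart RRM2 differed by 0.06. SLC28A3, a concentrative nucleoside transporter, rose from 4.01 to 5.93 (1.92 ± 0.21 SE, adjusted p = 9.02e-06) where SLC29A1 fell, and SAMHD1, which degrades deoxynucleotides, was higher already at 90 min by 1.03 ± 0.16 (SE; adjusted p = 0.00147).

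Among the neighbouring genes that fell, GCSH, a carrier protein of the glycine cleavage system, fell by 2.79 ± 0.06 (SE; adjusted p = 1.74e-11) at 24 h, and PSAT1, of serine synthesis, fell by 2.09 ± 0.07 (SE; adjusted p = 4.59e-10). MTHFD2L, a mitochondrial relative of MTHFD2, fell at least 6.16-fold (adjusted p = 2.77e-08), to a level of 3.46, under the mark of 4. GMPR, which returns GMP to IMP, fell at least 5.96-fold (adjusted p = 1.74e-05), to 2.61. DCTPP1, which degrades dCTP, fell by 1.64 ± 0.11 (SE; adjusted p = 1.47e-07), and MTR, the methionine synthase that uses methyl folate, fell by 1.45 ± 0.07 (SE; adjusted p = 1.44e-08). AK4, a mitochondrial adenylate kinase, fell by 1.27 ± 0.18 (SE; adjusted p = 7.53e-05). SLC19A1, the reduced folate carrier, fell by 1.24 ± 0.14 (SE; adjusted p = 1.40e-05), and PRPS2, which makes the ribose phosphate donor that PPAT uses, by 1.17 ± 0.22 (SE; adjusted p = 0.000953). AMPD3, which deaminates AMP, was lower at 4 h by 1.07 (adjusted p = 0.0010) and higher at 24 h by 0.67 (adjusted p = 0.0111). The 24 h call was lost without vehicle replicate 1 (0.0510) and with array medians subtracted (0.0580).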

How the data were processed

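RNA of 12 U937 cultures was measured on Affymetrix arrays with 54675 probe sets. RNA (200 ng) was labelled with a random-primed whole-transcript kit, per the labels' protocols. The authors deposited log2 values made with GCRMA in Affymetrix Expression Console, per the submitters' processing notes, with no version given in the sources used here, and these values were used as deposited. Probe sets were named by the platform annotation: 41097 had 1 gene symbol (41043 matched RefSeq), 1801 several and 11777 none, and the last 2 kinds were left out. For the 10523 genes with several probe sets, the one with the highest mean was kept.

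Differences were computed with limma 3.58.1 in R 4.3.3 (lmFit, eBayes with a trended prior, 4 group means, all 12 arrays, 8 residual degrees of freedom), with Benjamini-Hochberg adjustment over all 19775 genes and a call at 0.05. The p-values rest on the spread between the 3 samples labelled biological replicates in each group, pooled over the 4 groups. JS-K 4 h replicate 2 thus enters the spread used in every comparison of the main fit. That spread may be partly technical. The members and lists were chosen with earlier results of these data known. Every member was described, with single arrays given for members called with a log2 difference of at least 1 against vehicle and for the largest called rise and fall of each function group. RRM1, RRM2 and SHMT2 were also given more fully, after their values were seen. Other pathway genes were named where they were called with a difference of at least 1 against vehicle at any time. For vehicle and 90 min the deviations of same-numbered samples correlated at 0.128, 0.218 and 0.229, against -0.266 to 0.086 for different numbers, so these numbers were taken as pairing the samples of that comparison, on the data and not the labels. Promoter sequences came from RefSeq GRCh38.p14, for 28 members.

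The alternatives were a constant prior spread, the dimmest genes left out (mean under 2.7), probe sets averaged per gene, quantile normalization, array medians subtracted, a replicate block, only the 6 arrays compared, array weights, and each replicate left out. Tested on simulated data with the 19775 genes, for 4 h against vehicle, 90 of 100 genes made 2-fold different were recovered. So were 99 of 100 made 4-fold different, with 9 unchanged genes called. The changed genes were chosen only among brighter genes, with a vehicle mean well above the mark of 4, so recovery near that mark was not tested. Noise was drawn separately for each gene and array, so effects shared by a whole array were not part of this test. An added alternative, only genes with a mean of at least 4, was chosen after seeing the data.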

Additional observations from a re-analysis of the deposited data

Results flagged for a closer look

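RRM1 was called higher than vehicle at 4 h and lower than vehicle at 24 h, and the difference between the times was itself called: 24 h minus 4 h was -0.41 on the log2 scale (adjusted p = 8.37e-05). The arrays read 12.32, 12.42 and 12.38 at 4 h and 12.01, 12.01 and 11.86 at 24 h, with no overlap.

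The control probe sets for spiked poly-A RNA, which enter no comparison, carried a signal at 4 h (mean 6.76) and at 24 h (mean 8.14) above that of the vehicle arrays (mean 2.96).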

How the results depend on the processing

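Of the values of single members under the alternatives, 2170 stayed on their side of the threshold, 107 lost a call and 86 gained one. A further 4 changed sign while called in the main run or in the alternative. Values called in neither run that changed sign are counted among the 2170. With probe sets averaged, HPRT1 gave 0.193 at 4 h and 0.0321 at 24 h, ADK gave 0.882 at 4 h, and MTHFD2L, a pathway gene outside the 31, gave 0.00658 at 4 h. With quantile normalization SHMT1 gave -0.0541 at 24 h. Calls of members by count moved by over 1.5 times as follows, and the causes were not tested. With array medians subtracted, 1 was higher and 1 lower at 90 min, 1 higher at 4 h, 1 higher from 90 min to 4 h and 1 higher from 4 h to 24 h. That scaling moved the median of all genes at 4 h by -0.104. With probe sets averaged, 1 was higher and 1 lower at 90 min, 2 were higher at 24 h, 1 was higher from 90 min to 4 h and 1 from 4 h to 24 h. With array weights, 5 were higher and 7 lower at 90 min, 7 higher at 4 h and 4 higher at 24 h. With only the 6 arrays compared, 4 were higher at 90 min, 8 lower at 4 h, 3 higher at 24 h, 4 lower from 90 min to 4 h and 1 higher from 4 h to 24 h. With quantile normalization, 4 were lower at 90 min, 9 lower at 4 h and 3 higher at 24 h. Among genes with a mean of at least 4, an alternative chosen after seeing the data, 4 were lower at 90 min and 2 higher at 24 h.

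For the other pathway genes, subtracting medians left 3 higher at 90 min, 4 at 4 h and 8 at 24 h, and 4 were higher at 4 h with a constant prior spread or only the 6 arrays, against 13 with array weights. For the replication genes, of which 1 was higher and 2 lower at 90 min, quantile normalization gave 2 higher and 7 lower, array weights 3 higher and 10 lower, the 6 arrays alone 8 lower, medians subtracted 1 lower, the dimmest genes left out 4 lower and genes with a mean of at least 4 gave 5 lower. At 4 h 1 replication gene was higher with probe sets averaged or medians subtracted.

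Leaving out 1 array at a time, members lower numbered 1 to 4 at 90 min, 9 to 15 at 4 h, 21 to 23 at 24 h, 4 to 13 from 90 min to 4 h and 20 to 23 from 4 h to 24 h. Members higher numbered 2 to 2, 3 to 5, 1 to 4, 2 to 2 and 1 to 2 in the same order. Other pathway genes higher numbered 3 to 9, 4 to 10 and 9 to 19 at the 3 times, and lower 4 to 9, 14 to 20 and 17 to 23. Replication genes higher at 90 min numbered 0 to 2 and lower 1 to 7.

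The replicate numbers met the check for pairing between vehicle and 90 min, where a replicate block left 2 members higher and 2 lower and changed no member's call. In the other 5 pairs of groups, 4 of 15 same-number correlations exceeded 0.1, from -0.134 to 0.369. Between 90 min and 4 h they were 0.048, 0.369 and 0.304, against -0.336 to 0.213 for different numbers, so a pairing of those groups remains uncertain. In none of these 5 pairs did every same-number correlation exceed 0.1, and their samples were treated as sharing only a number. With a replicate block in these 5 pairs, 2 members were higher at 24 h and 1 was higher from 4 h to 24 h. The other counts of members stayed within 1.5 times. A change of SHMT1 or MTHFD1L, with means under 4, was not detectable at this signal, and the falls of DHODH are lower bounds for the same reason.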
